A study of Homo sapiens with 8 samples.

Results

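The 10 genes described here encode the core of the inflammasome and the IL-1 family cytokines that it acts on, with their secreted antagonists. They were taken from the table by gene symbol, as a list drawn up with earlier results of these data known: NLRP3, NLRC4, AIM2, PYCARD, CASP1, GSDMD, IL1B, IL1RN, IL18 and IL18BP. All 10 were found among the 26364 gene symbols of the expression table, and all 10 were among the 14151 genes that passed the filter on low values (TPM, a transcript abundance scaled to a fixed total per library, of 1 or more in at least 2 libraries).

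An inflammasome is a cytosolic complex in which a sensor protein, such as NLRP3, NLRC4 or AIM2, recruits caspase-1 directly or through the adaptor ASC, the product of PYCARD. Caspase-1 then cleaves the precursors of IL-1β and IL-18 into active cytokines and cleaves gasdermin D, whose freed fragment forms pores in the plasma membrane. The pathway is best known in monocytes and macrophages, and much of it is controlled after transcription, so that transcript levels give the stock of components and not the activity of the complex.

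RNA was sequenced from MV4-11, a human acute myeloid leukemia (AML) cell line with an MLL-AF4 fusion and an internal tandem duplication in FLT3, in 4 groups of 2 libraries. The control received the vehicle DMSO, and the other groups received TCP (tranylcypromine, an inhibitor of the histone demethylase LSD1) at 5 µM, palbociclib (an inhibitor of the cell cycle kinases CDK4 and CDK6) at 0.5 µM, or both, called here the combination. By the labels the cells were treated for 4 days. The methods of the study add that palbociclib was given before TCP joined it, and that cell lines were grown on HS-5 human stromal cells, which the labels do not mention. All groups share 1 cell line, and nothing says whether the 2 libraries of a group came from separate cultures, so p-values measure the spread between these libraries, which may be technical.

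Values are TPM, which are scaled for transcript length and for library, so genes can be compared with each other, but the table holds no read counts and the depth of each library is unknown. Log2 fold changes are differences of log2(TPM + 1), which understates changes of low genes. A gene was called where the log2 fold change reached 1 in either direction and the adjusted p (limma, Benjamini-Hochberg over all genes tested, two-sided) was below 0.01. Permuting 2 against 2 libraries exactly gives no two-sided p under 0.333, so every p here comes from the model across genes. The 3 comparisons with control share the same 2 control libraries.

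The cells carried the transcripts of their label, with the 6 AML markers CD33, FLT3, SPI1, PTPRC, HOXA9 and MEIS1 at 1 TPM or more in all 8 libraries and a summed level between 785 and 905 TPM. Within that sum, FLT3 was at 249 and 221 TPM in control and 81.1 and 62.6 TPM in the combination, and SPI1 at 214 and 250 TPM in control and 437 and 497 TPM in the combination. Of 4 lymphoid markers, CD3E and MS4A1 were at 0 in every library and NKG7 was detected. The sum of 8 mature myeloid genes (CD14, LYZ, S100A8, S100A9, ITGAM, FCGR1A, FCGR3A and CSF1R) was 391 and 874 TPM in control, 881 and 1878 in TCP, 19360 and 21531 in palbociclib and 38941 and 38282 in the combination. The sum of 9 stromal genes (COL1A1, COL1A2, COL3A1, SPARC, THY1, PDGFRB, LUM, DCN and POSTN) was far lower but differed between replicates, reaching 71.6 TPM in palbociclib replicate 2. In bulk RNA, fewer cells of a type and less RNA per cell cannot be told apart.

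NLRC4 rose and IL18 fell with the combination, and these were the only members called in the 6 comparisons by the model without a replicate block. Against control, 0 of 10 members were called with TCP, 0 with palbociclib and 2 with the combination, where 0.0565%, 9.1% and 13.7% of all genes tested were called. NLRC4 was also the single member called in the combination against palbociclib (0.502% of all genes) and in the combination against TCP (12.2% of all genes). The interaction, which asks whether the combination differs from the sum of the single-agent changes, called 0 members and 0% of all genes by limma. At an unadjusted p below 0.05 there were 3 members for TCP, 6 for palbociclib, 7 for the combination and 2 for the interaction, against 1241, 7547, 8381 and 904 of all genes. With the replicate number as a block in the model, IL18 was called with palbociclib, and NLRC4, IL18 and IL1B with the combination. Those blocked fits called 9.79% and 14.4% of all genes.

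The 10 genes had fold changes of both signs. The median log2 fold change of the members against control was 0.17 with TCP, -0.13 with palbociclib and 0.13 with the combination, beside medians over all genes tested of -0.04, -0.16 and -0.22. In the combination, 6 members had positive and 4 had negative fold changes. An adjusted p below 0.01 was reached by 5 members there, where 36% of all genes reached it, and the fold changes of 3 of these (NLRP3, GSDMD and IL18BP) were smaller than the fold threshold.

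**Figure D1:**
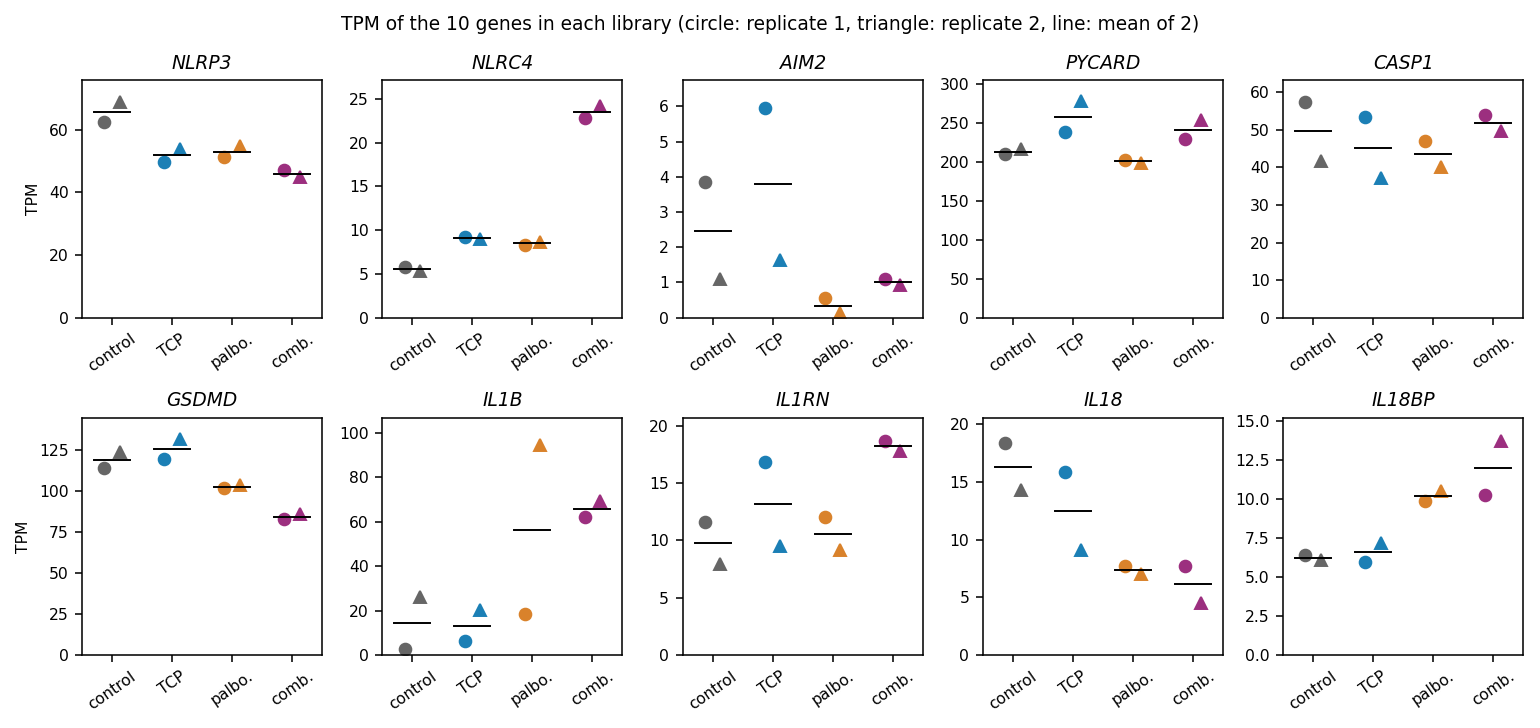
TPM of the 10 members in each of the 8 libraries, on linear axes that start at 0, with circles for replicate 1, triangles for replicate 2 and bars for the group means. NLRC4 lies above 22 TPM in both combination libraries and below 10 TPM in all others, while IL1B spreads from 2.84 to 26.3 TPM within control alone.

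In control cells the members spanned a wide range of transcript levels. PYCARD was highest, at a mean of 213 TPM, followed by GSDMD at 119, NLRP3 at 65.8 and CASP1 at 49.6 TPM. The cytokines and antagonists were lower, with IL18 at 16.3, IL1B at 14.6, IL1RN at 9.77 and IL18BP at 6.24 TPM, and the sensors NLRC4 (5.54 TPM) and AIM2 (2.47 TPM) came last. Among neighbours in this order, the control libraries overlapped for IL18 and IL1B and for IL1B and IL1RN, and for no other pair.

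Among the sensors, NLRC4 showed the clearest response. NLRC4 recognises bacterial flagellin and secretion system proteins with the help of NAIP proteins, and carries its own caspase recruitment domain. The gene lies on the minus strand of chromosome 2 (GRCh37, chr2:32449522-32490801). Its level was 5.77 and 5.31 TPM in control, 9.17 and 9.02 TPM in TCP, 8.28 and 8.69 TPM in palbociclib and 22.9 and 24.2 TPM in the combination. Both libraries of each single agent were thus above both controls, and both combination libraries were above all others.

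Against control, the log2 fold change of NLRC4 was 1.91 with the combination (SE 0.0984, 95% confidence interval 1.67 to 2.14, adjusted p = 2.9e-05, higher in both libraries). With the single agents it was 0.63 for TCP (adjusted p = 0.0722) and 0.54 for palbociclib (adjusted p = 0.00479), both below the fold threshold. The combination exceeded TCP by 1.28 (adjusted p = 0.000121) and palbociclib by 1.37 (adjusted p = 0.00236). The call against palbociclib was lost when palbociclib 1, palbociclib 2, combination 1 or combination 2 was left out, with log2 fold changes of 1.33 to 1.41 over all 8 omissions and an adjusted p of at most 0.0430. The call against control held in all 8 such fits, with an adjusted p of at most 0.000776.

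The change of NLRC4 in the combination was larger than the sum of the single-agent changes by 0.74 on the log2 scale, but this interaction was not called (adjusted p = 0.279). The summed mature myeloid transcripts were, as NLRC4 was, lowest in control and highest in the combination. They were at 881 and 1878 TPM with TCP and 19360 and 21531 TPM with palbociclib, where NLRC4 was at like levels. Most of the sum was LYZ, at 16431 and 18984 TPM with palbociclib. With TCP and then palbociclib, CD14 was at 4.32 and 6.70, then 77.0 and 68.0 TPM. S100A8 was at 12.5 and 31.5, then 890 and 772 TPM, and S100A9 at 45.0 and 60.5, then 1820 and 1578 TPM. FCGR1A was at 73.1 and 59.5, then 103 and 89.6 TPM, and FCGR3A at 0.0533 and 0.0651, then 0.386 and 0.509 TPM. Alone among these genes, ITGAM was lower with palbociclib, at 6.50 and 3.10, then 1.91 and 1.80 TPM. CSF1R was at 21.25 and 20.92, then 36.4 and 37.9 TPM. The part of these transcripts in the NLRC4 result was not tested. The genes whose levels relative to control were most like those of NLRC4, by root mean square log2 difference over the 8 libraries among 11107 candidates, were ACVRL1 (0.102) and MYCL (0.171). ACVRL1, a receptor of the TGF-β family, was between 3.09 and 3.37 TPM in control and between 13.1 and 15.7 TPM in the combination. MYCL, a transcription factor of the MYC family, was between 2.71 and 3.02 TPM in control and between 12.6 and 15.3 TPM in the combination.

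The study also examined accessibility at binding sites of the myeloid factors SPI1 and C/EBP, so the promoter of this member is shown with matches to the core letters of both. The RefSeq promoter table (250 bases before to 50 bases after a start site) held 14 windows for 7 of the 10 members. CASP1, GSDMD and IL18 had no entry. The window of NLRC4 at the start site nearest to its annotated 5′ end is chr2:32490763-32491062 on the minus strand of GRCh37, given 5′ to 3′, with matches in capitals.
NLRC4: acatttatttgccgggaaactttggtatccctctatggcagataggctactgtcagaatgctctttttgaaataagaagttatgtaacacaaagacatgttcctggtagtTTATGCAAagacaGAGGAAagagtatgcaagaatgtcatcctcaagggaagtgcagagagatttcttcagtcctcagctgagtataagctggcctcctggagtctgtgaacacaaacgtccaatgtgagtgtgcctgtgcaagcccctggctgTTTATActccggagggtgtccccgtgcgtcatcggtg
The capitals mark, from left to right, the C/EBP core TTGCNNAA on the opposite strand, 140 bases before the start site, the SPI1 core GAGGAA 127 bases before it, and a TATAAA match on the opposite strand, 13 bases after it. Both strands were searched and none of these matches overlapped. An overlapping NLRC4 window at start site 32490689 held GAGGAA at its edge, 250 bases before the site, and TATAAA, but not TTGCNNAA. The NLRC4 window at start site 32489955 held no match. Over all 35116 promoters of the table, 27.9% held GAGGAA, 10.5% held TTGCNNAA and 11.5% held TATAAA. These matches are a description of letters and not of bound sites. Among the members with an entry, GAGGAA was also found in a window of NLRP3, PYCARD and IL18BP, and TTGCNNAA in that of IL1B.

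NLRP3, the sensor that responds to potassium efflux and membrane damage, had a much higher level than NLRC4 and was not called in any of the 6 comparisons. It is encoded on chromosome 1 (GRCh37, chr1:247579458-247612410). NLRP3 was at 62.7 and 69.0 TPM in control, 49.7 and 53.9 TPM in TCP, 51.3 and 54.7 TPM in palbociclib and 47.3 and 44.8 TPM in the combination. Every treated library was below both controls, and both combination libraries were below the single-agent ones. Its log2 fold change against control was -0.34 with TCP (adjusted p = 0.257), -0.31 with palbociclib (adjusted p = 0.0263) and -0.51 with the combination (adjusted p = 0.00286), none past the fold threshold. After scaling the libraries by the median ratio over genes, the combination value was -0.28 (adjusted p = 0.058).

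AIM2, which binds cytosolic double-stranded DNA, was the least abundant member and is encoded on the minus strand of chromosome 1 (GRCh37, chr1:159031389-159157633). It was at 3.85 and 1.10 TPM in control, 5.95 and 1.63 TPM in TCP, 0.555 and 0.137 TPM in palbociclib and 1.10 and 0.934 TPM in the combination. Both palbociclib libraries were below every other library, but replicates differed several-fold within control, TCP and palbociclib. The log2 fold change with palbociclib was -1.26 (SE 0.53, adjusted p = 0.0928), and no comparison called AIM2. That value was -2.46 with a pseudocount of 0.1 (adjusted p = 0.0457) and -0.66 without control 1 (adjusted p = 0.406).

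Neither the adaptor nor the protease was called in any of the 6 comparisons. PYCARD (GRCh37, chr16:31212807-31214771, minus strand) encodes ASC, which bridges sensors to caspase-1 and assembles into the specks seen in activated cells. It was at 209.7 and 216 TPM in control, 238 and 278 TPM in TCP, 203 and 199 TPM in palbociclib and 229 and 254 TPM in the combination. Its log2 fold changes against control were 0.27, -0.08 and 0.18 in that order of treatments (adjusted p = 0.438, 0.499 and 0.151). The 95% interval for the combination ran from -0.04 to 0.40, and the value was 0.41 with median-ratio scaling (adjusted p = 0.0243), below the fold threshold. PYCARD overlaps an antisense gene, PYCARD-AS1, that was listed at 55.2 to 83.7 TPM. The library kit keeps strand but the counting setting is not given in the sources used here, so reads of the pair may not be separated.

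CASP1 (GRCh37, chr11:104896124-104905977, minus strand) encodes caspase-1, which cleaves both cytokine precursors and gasdermin D. It was at 57.5 and 41.7 TPM in control, 53.5 and 37.1 TPM in TCP, 47.0 and 40.0 TPM in palbociclib and 54.0 and 49.7 TPM in the combination. All 3 treated groups overlapped control, and replicate 1 was the higher in each group. The log2 fold change with the combination was 0.08 (95% interval -0.41 to 0.57, adjusted p = 0.767), and 0.31 with median-ratio scaling (adjusted p = 0.227). A close copy, CARD16, was listed at 21.7 to 29.7 TPM. Any reads shared between these genes would make the level of CASP1 uncertain, which was not examined.

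GSDMD, which encodes the pore former gasdermin D, was lower in the combination by less than the fold threshold. It lies on chromosome 8 (GRCh37, chr8:144635377-144645232) and was at 114 and 124 TPM in control and 119.8 and 132 TPM in TCP. It was at 101.7 and 103.7 TPM in palbociclib and 82.8 and 86.3 TPM in the combination. Control and TCP overlapped, palbociclib was below both, and the combination was below all other libraries. The combination differed from control by -0.49 (SE 0.0795, adjusted p = 0.00222) and from TCP by -0.57 (adjusted p = 0.0013) on the log2 scale. With median-ratio scaling the value against control was -0.26 (adjusted p = 0.0658).

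**Figure D2:**
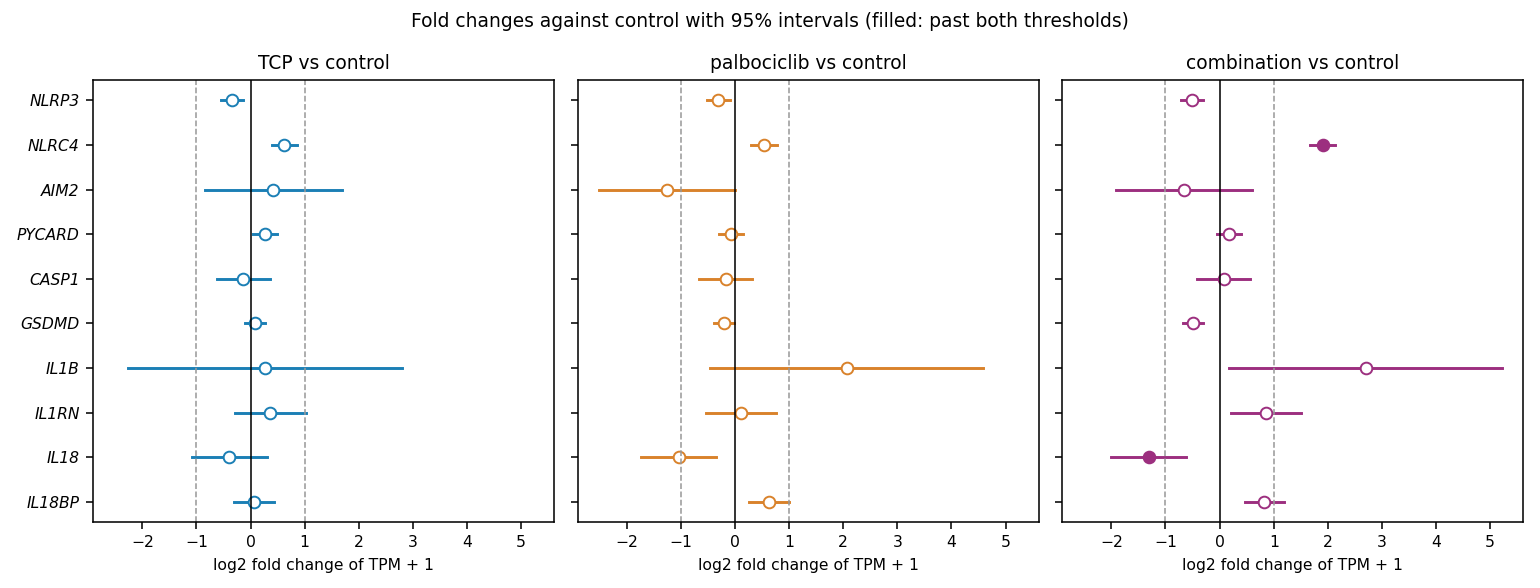
Log2 fold change of TPM + 1 of each member against control with TCP, palbociclib and the combination, with 95% confidence intervals and dashed lines at a log2 fold change of 1 in either direction. In this fit without a replicate block, only NLRC4 and IL18 in the combination passed both thresholds. The intervals of IL1B and AIM2 are the widest.

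IL18, which encodes a constitutively transcribed IL-1 family cytokine that drives interferon-γ production, was the other member called by the model without a replicate block. IL18 is encoded on chromosome 11 (GRCh37, chr11:112013976-112034819, minus strand). Its level was 18.3 and 14.3 TPM in control, 15.8 and 9.13 TPM in TCP, 7.71 and 7.01 TPM in palbociclib and 7.68 and 4.55 TPM in the combination. TCP overlapped control, while all 4 libraries that received palbociclib were below both controls and both TCP libraries. The log2 fold change was -1.31 with the combination (SE 0.29, 95% interval -2.00 to -0.61, adjusted p = 0.00862, lower in both libraries), -1.04 with palbociclib (SE 0.29, adjusted p = 0.0253) and -0.40 with TCP (adjusted p = 0.776).

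The IL18 result lay close to the threshold. The combination call was lost without control 1, control 2, palbociclib 1, palbociclib 2, combination 1 or combination 2, with an adjusted p between 0.0101 and 0.0529 in those fits and log2 fold changes between -1.63 and -0.98. It was also lost after quantile normalization (-1.14, adjusted p = 0.0113) and median-ratio scaling (-1.10, adjusted p = 0.0157). Replicate 2 was below replicate 1 in every group for this gene. With the replicate number as a block in the model, the adjusted p was 0.00239 with palbociclib and 0.000728 with the combination, so IL18 was called in both. The combination differed from palbociclib by -0.27 (95% interval -0.96 to 0.43, adjusted p = 0.699), and the interaction was 0.13 (adjusted p = 0.998). Nearest to IL18 in pattern were SLC41A1, a magnesium transporter (0.137), and HSPA13, a chaperone of the HSP70 family (0.142), on the same measure as for NLRC4.

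IL1B, which encodes the precursor of the pyrogenic cytokine IL-1β and is strongly inducible in monocytes, had the largest fold changes among the members with palbociclib and with the combination against control, and the largest differences between replicates in every group but the combination. Its level was 2.84 and 26.3 TPM in control, 6.15 and 20.3 TPM in TCP, 18.3 and 94.2 TPM in palbociclib and 61.9 and 69.2 TPM in the combination. Both combination libraries were above all control and TCP libraries, while palbociclib overlapped control and spanned the combination. Replicate 2 was the higher in each group. The log2 fold change was 2.70 with the combination (SE 1.07, 95% interval 0.17 to 5.22, adjusted p = 0.0694), 2.06 with palbociclib (SE 1.07, adjusted p = 0.156) and 0.27 with TCP (adjusted p = 0.967), and none was called.

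For IL1B the value depended on single libraries. The combination value was 1.28 without control 1 and 4.11 without control 2 (adjusted p = 0.34 and 0.0203). The palbociclib value was 0.65 without control 1, 3.48 without control 2, 3.22 without palbociclib 1 and 0.91 without palbociclib 2, with an adjusted p of at least 0.0431. The TCP value was -1.15 without control 1, 1.69 without control 2, 1.06 without TCP 1 and -0.52 without TCP 2, so that its sign rested on single libraries. With the replicate block, the combination passed both thresholds at the same fold change (SE 0.57, adjusted p = 0.00699), and the members called were then 1 with palbociclib and 3 with the combination, where 9.79% and 14.4% of all genes were called.

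Stromal transcripts moved with IL1B across the libraries. The sum of the 9 stromal genes was 0.762 and 5.04 TPM in control, 0.979 and 5.23 TPM in TCP, 4.38 and 71.6 TPM in palbociclib and 7.14 and 12.8 TPM in the combination. It was the higher in replicate 2 of every group, as IL1B was, and the 8 libraries ranked the same on both measures except that control 2 and TCP 2 changed places. Between 0 and 6 of the 9 stromal genes reached 1 TPM in a library, and POSTN was at 0 in all. IL1A, a ligand of the same receptor, was at 11.9 TPM in palbociclib replicate 2 and between 0.457 and 3.96 TPM in the others. Ranked from low to high, control 1 (rank 1), TCP 2 (rank 4) and combination 2 (rank 7) held the same place by the mature myeloid sum as by IL1B. The others differed. By the myeloid sum and then by IL1B, control 2 was at rank 2 and 5, and TCP 1 at 3 and 2. Palbociclib 1 was at rank 5 and 3, palbociclib 2 at 6 and 8, and combination 1 at 8 and 6. The parts of stromal and of mature myeloid RNA in the IL1B result were not tested.

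**Figure D3:**
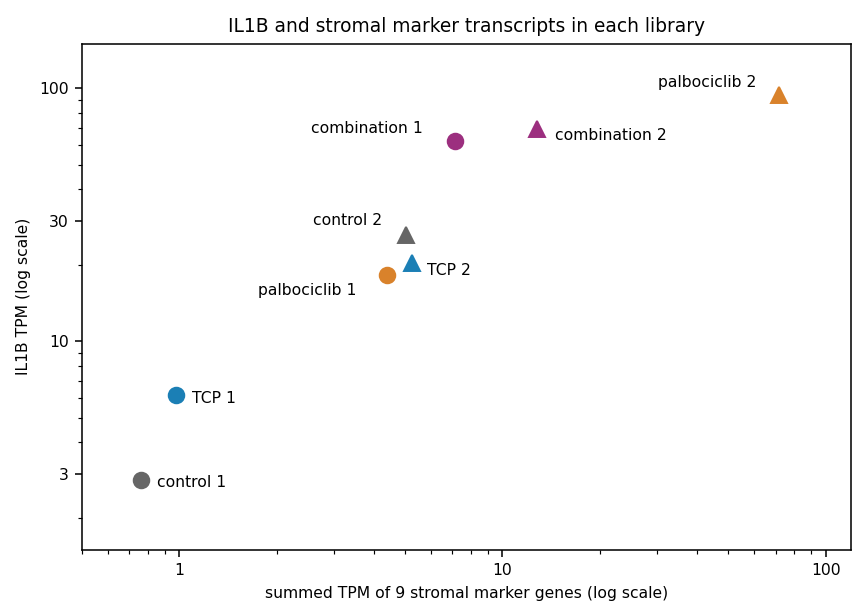
IL1B TPM against the summed TPM of 9 stromal marker genes in each library, both on log axes, with circles for replicate 1 and triangles for replicate 2. Control 1 is lowest on both axes (0.762 TPM stromal, 2.84 TPM IL1B) and palbociclib 2 is highest on both (71.6 and 94.2 TPM).

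The promoter of IL1B is shown because this is the inducible cytokine of the set. The gene spans chr2:113587328-113594393 on the minus strand of GRCh37, and its RefSeq promoter window is chr2:113594307-113594606, given 5′ to 3′ with the match in capitals.
IL1B: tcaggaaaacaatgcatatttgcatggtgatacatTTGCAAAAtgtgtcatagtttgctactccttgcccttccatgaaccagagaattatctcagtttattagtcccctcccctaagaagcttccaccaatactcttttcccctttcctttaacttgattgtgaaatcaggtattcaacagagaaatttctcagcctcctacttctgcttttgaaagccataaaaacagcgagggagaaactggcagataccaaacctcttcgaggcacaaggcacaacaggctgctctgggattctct
The capitals mark a TTGCNNAA match on the plus strand of the window, 215 bases before the start site. Neither GAGGAA nor TATAAA was found in these letters.

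The secreted antagonists had higher mean levels in the combination than in control. IL1RN (GRCh37, chr2:113856892-113891593) encodes the IL-1 receptor antagonist, which occupies the receptor without signalling. It was at 11.6 and 7.97 TPM in control, 16.8 and 9.54 TPM in TCP, 12.0 and 9.16 TPM in palbociclib and 18.6 and 17.8 TPM in the combination. Both combination libraries were above all others, and both single agents overlapped control. Its log2 fold change was 0.85 with the combination (adjusted p = 0.0345, and 1.05 with adjusted p = 0.00951 after quantile normalization, past both thresholds), 0.37 with TCP (adjusted p = 0.777) and 0.12 with palbociclib (adjusted p = 0.757).

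IL18BP (GRCh37, chr11:71709659-71718361) encodes a soluble protein that binds IL-18 and keeps it from its receptor. It was at 6.41 and 6.06 TPM in control, 5.99 and 7.16 TPM in TCP, 9.88 and 10.5 TPM in palbociclib and 10.2 and 13.7 TPM in the combination. The 4 libraries that received palbociclib were above all 4 that did not. The log2 fold change was 0.63 with palbociclib (adjusted p = 0.0152), 0.83 with the combination (SE 0.16, adjusted p = 0.00403) and 0.06 with TCP (adjusted p = 0.949), below the fold threshold in each. With median-ratio scaling the combination value was 1.03 (adjusted p = 0.00248) and passed both thresholds. The study, which used DESeq2 on read counts, lists IL18BP among genes with significant gains in both transcript level and chromatin accessibility after treatment. Among cell death pathways that it gives as increased by the combination, it also lists NLRC4 and AIM2 under pyroptosis. IL1B and IL1A are listed there under regulation of apoptotic signalling. No fold change of a single gene is given with those pathways. Exons of IL18BP overlap those of NUMA1 on the opposite strand. NUMA1 was listed at 75.1 to 102 TPM, well above IL18BP, and was lower in the combination (log2 fold change -0.38, adjusted p = 0.00329), opposite in sign to IL18BP. As for PYCARD, the strand setting of the counting is not given, so reads of IL18BP and NUMA1 may not be separated. The part of NUMA1 reads in the IL18BP values was not tested.

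Each cytokine was also set against its antagonist. The ratio of IL18 to IL18BP transcripts was 2.86 and 2.35 in control, 2.64 and 1.28 in TCP, 0.780 and 0.667 in palbociclib and 0.751 and 0.333 in the combination, below 1 in all 4 libraries with palbociclib and above 1 in the others. The ratio of IL1B to IL1RN was 0.246 and 3.30 in control, 0.365 and 2.13 in TCP, 1.52 and 10.3 in palbociclib and 3.32 and 3.90 in the combination. For this pair TCP and palbociclib overlapped control, and combination 1 was barely above control 2. Ratios are given as a description, without a test.

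**Figure D4:**
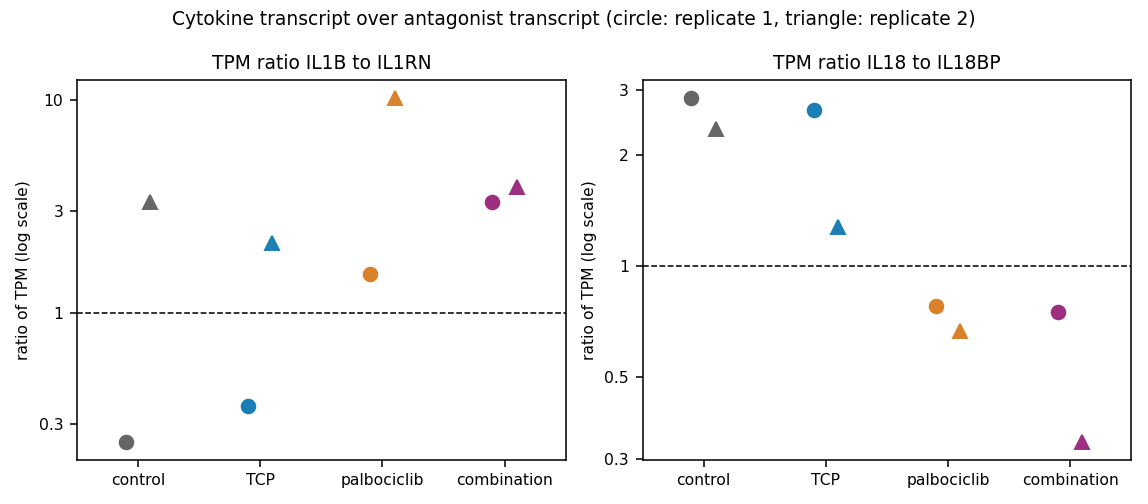
Ratio of cytokine to antagonist TPM in each library on log axes, for IL1B over IL1RN (left) and IL18 over IL18BP (right), with a dashed line at 1. The IL18 ratio lies below 1 in the 4 libraries with palbociclib, and the IL1B ratio spans 0.246 to 3.30 within control.

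Genes around the 10 members were taken as 5 lists of 53 genes, of which 33 were tested and 6 were called in at least 1 of the 6 comparisons, as were 16.1% of all genes tested. Single comparisons called 9.1% of all genes with palbociclib and 13.7% with the combination, and the counts below are to be read against these shares. Among 17 other sensors and regulators, 14 were tested. Of these 14, 2 rose and 1 fell with palbociclib (median log2 fold change -0.13), and 2 rose and 0 fell with the combination (median -0.08). NAIP, which hands bacterial ligands to NLRC4, was at 1.56 and 1.87 TPM in control, 1.29 and 1.91 TPM in TCP, 18.8 and 21.7 TPM in palbociclib and 20.6 and 25.6 TPM in the combination. It rose by 2.97 with palbociclib (adjusted p = 8.9e-05) and by 3.15 with the combination (adjusted p = 3.6e-05) on the log2 scale. NAIP has near-identical copies in the genome, so its level is uncertain. All 4 libraries with palbociclib thus stood above the other libraries for NAIP, whereas for NLRC4 only the 2 combination libraries exceeded 10 TPM.

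MEFV, which encodes the sensor pyrin, rose by 1.90 with palbociclib (adjusted p = 0.000662) and by 2.55 with the combination (adjusted p = 0.000131). IFI16, a nuclear DNA sensor related to AIM2, fell by 1.93 on the log2 scale with palbociclib (adjusted p = 0.00486), and its value with the combination was -0.29. The difference between those groups was not called (1.64, adjusted p = 0.0601). P2RX7, the ATP-gated channel upstream of NLRP3, had a value of -2.02 with palbociclib that missed the threshold (adjusted p = 0.0124) and passed it with the replicate block (adjusted p = 0.00153). With the combination, PANX1 (-0.92, adjusted p = 0.00155) and NEK7 (-0.83, adjusted p = 0.00534) had lower values that did not reach the fold threshold. The most abundant gene of the list was TXNIP, which binds thioredoxin and has been linked to NLRP3.

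Of 8 other inflammatory caspases and pore formers, 5 were tested and 1 rose in each group with palbociclib. This was NINJ1, the membrane protein that carries out plasma membrane rupture after pore formation, with log2 fold changes of 1.45 for palbociclib (adjusted p = 0.000484) and 1.27 for the combination (adjusted p = 0.000486). CASP4, which senses intracellular lipopolysaccharide, was the most abundant of this list and was not called. Of 8 other IL-1 family ligands, IL1A alone passed the filter, and of 9 receptors, IL1RAP and SIGIRR did, and none of these was called. IL1RAP, the shared accessory chain, had the higher mean level of those receptors.

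All 11 signalling genes below the receptors were tested, and 2 rose with palbociclib (median of the list -0.10, with 9.1% of all genes called) and with the combination (median -0.25, with 13.7% called). IRAK3, a kinase relative that dampens receptor signalling, rose by 1.46 and 1.75 in these groups, and TOLLIP, an adaptor that limits IRAK1 activity, by 1.02 and 1.06. MYD88, the receptor adaptor, had a value of 0.74 with the combination (adjusted p = 0.00074), below the fold threshold. TAB1 had a value of -0.75 there (adjusted p = 0.00128), also short of the fold threshold. IRAK1, the most abundant gene of the list, was not called. With TCP alone 0 of the 33 genes were called by limma, and 0 were called between the combination and palbociclib. MEFV, NAIP, NINJ1, IRAK3 and TOLLIP were called in the combination against TCP as well.

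**Figure D5:**
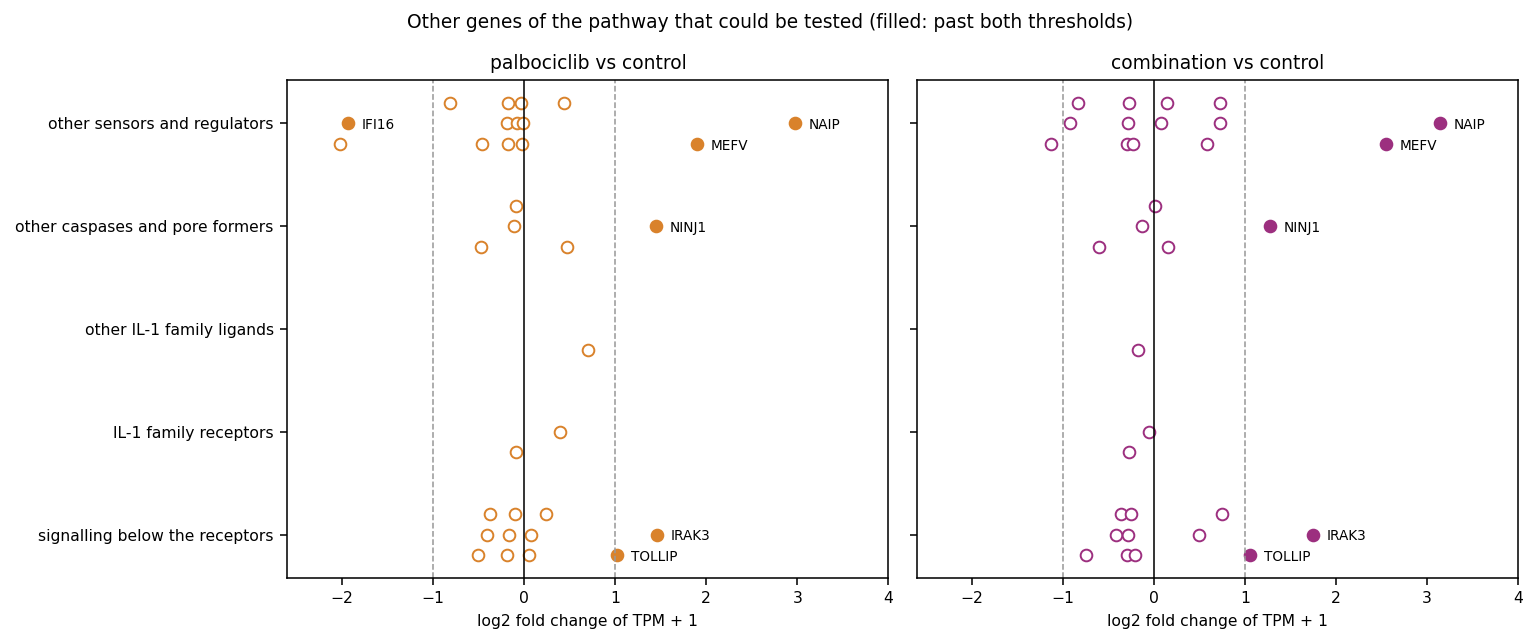
Log2 fold change of TPM + 1 against control for the 33 tested genes of the 5 pathway lists, with palbociclib (left) and the combination (right), 1 point per gene and dashed lines at a log2 fold change of 1 in either direction. Filled points passed both thresholds, which were 6 genes with palbociclib and 5 with the combination.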

How the data were processed

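RNA-seq of 8 MV4-11 libraries (4 groups of 2) was analysed from 1 deposited table of TPM values, which the authors made per gene symbol from stranded mRNA libraries. Their tools, by the submitters' processing notes, included SAMtools 1.9, featureCounts 1.6.4 and DESeq2 1.26.0. The gene lengths and the strand setting behind the TPM are not given in the sources used here, and no read counts were used, so depth and counting error are unknown.

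Values were taken as log2(TPM + 1). Genes reaching 1 TPM in 2 or more libraries were fitted with limma 3.58.1 (R 4.3.3), 1 coefficient per group, a mean-variance trend and 4 residual degrees of freedom before moderation, and p-values were adjusted by Benjamini-Hochberg over all 14151 genes. Scripts were tested on simulated data. The label Palbociclib + TCP was matched to its table columns as the abbreviation not taken by another group. Of the 10 members all were named. From the pathway lists the called genes and the most abundant one were named, with P2RX7, which was called with the replicate block. List genes with an adjusted p below 0.01 in the combination against control that missed the fold threshold were named as well. For each member called against control, the 2 genes of most similar pattern with a mean of at least 5 TPM were named. Members and lists were chosen with earlier results of these data known. Replicate numbers are shared by the groups. Deviations from group means correlated between same-numbered libraries by 0.169 to 0.491 in all 6 pairs of groups. The numbers may thus mark pairs, on the values alone. The main fit and its calls do not take this into account, and the blocked fit is given where it changed a call. Alternatives were another pseudocount, other filters, quantile and median-ratio scaling, no trend, fewer groups, a looser threshold and each library left out. Positions came from GENCODE v44lift37, and promoters from RefSeq (GRCh37), placed by exact match.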

Additional observations from a re-analysis of the deposited data

How the results depend on the processing

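Of 1003 values of members recomputed under 17 other settings, 944 kept their direction and their side of the thresholds, 7 came to pass them, 14 no longer did, and 38 changed sign, 31 of these on leaving out a library. None of the values that changed sign was past the thresholds. The other filters, the replicate block, the fit without a trend, the looser threshold and fewer groups leave a fold change unchanged by construction. Leaving out a library of a group not compared does so too. The 944 values are thus no measure of stability. With palbociclib the count of members called was 1 with the replicate block, with an adjusted p below 0.05 and with only the groups compared. The paired fit with the replicate block gave 3 members for the combination, and beside the calls of IL18 and IL1B it changed no call of a member. For the combination the count was 1 without a filter and without a trend (IL18 adjusted p = 0.0583 and 0.0122). Leaving out libraries gave counts of 1 to 2 for the combination against control and 0 to 1 against palbociclib. Changes of sign under scaling were PYCARD with palbociclib (0.0213 by quantiles, 0.0814 by median ratio), combination against TCP for NLRP3 (0.0112 and 0.0163) and PYCARD (0.00428 and 0.0910), and the interaction of PYCARD (0.0096 by median ratio). Leaving out single libraries moved values across 0 as follows. With TCP, AIM2 ranged from -0.28 to 1.12, CASP1 from -0.39 to 0.12, IL1B from -1.15 to 1.69, IL1RN from -0.0109 to 0.75 and IL18BP from -0.0490 to 0.17. With palbociclib, CASP1 ranged from -0.40 to 0.0533 and IL1RN from -0.13 to 0.36, and with the combination CASP1 from -0.15 to 0.31. Combination against palbociclib ranged from -0.52 to 1.79 for IL1B and from -0.59 to 0.0551 for IL18, and against TCP from -0.21 to 0.0186 for PYCARD and from -0.0453 to 0.47 for CASP1. The interaction ranged from -0.52 to 0.88 for AIM2, -0.12 to 0.10 for PYCARD, -1.05 to 1.78 for IL1B, -0.00952 to 0.75 for IL1RN, -0.24 to 0.50 for IL18 and -0.0584 to 0.33 for IL18BP. AIM2 gave no value where a mean of 5 TPM was required. A group left with 1 library is assumed to vary like the others. TPM carry no depth, so no counting error can be given for low levels such as those of AIM2.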
